A study of Saccharomyces cerevisiae with 9 samples.

Results

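The 45 genes described here encode proteins of the large subunit of the cytoplasmic ribosome of Saccharomyces cerevisiae, named RPL or RPP, and were taken from a given list of Watson-strand genes. All 45 listed genes were found in the deposited pool table by their ORF name, and all 45 had a symbol in the reference gene table. They contributed 58 wild-type RNAs, out of 4383 complete wild-type RNAs of 2370 genes. The reference table holds 82 RPL and RPP genes, and the others were not analysed here. The list is by gene name and position, with no measured value in its rule.

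The series describes dimethyl sulphate (DMS) probing of a synthetic pool of yeast 5′ leaders transcribed with T7 RNA polymerase, and DMS methylates unpaired A and C. The labels give 3 groups of 3 libraries, 9 in all. In the first, RNA was heated to 95 °C for 2 min and treated with DMS while denatured; in the second, heated RNA was refolded and kept at 30 °C for 2 min with DMS; in the third, it was refolded likewise but received no DMS. The pool RNA was naked and made in vitro, so neither ribosomes nor other proteins were present and no cell type or strain applies. The 6 columns of values carry a replicate number and no condition, so reactivity, depth and replicate error were not analysed here, and each value below is a property of a pool sequence or of a structure predicted from it.

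The large subunit joins amino acids at its peptidyl transferase centre, passes the growing chain through an exit tunnel, and takes up elongation factors and releases tRNA at flexible stalks. Yeast makes its ribosomal proteins in great and matched amounts. Many of their genes exist as A and B copies left by an ancient genome duplication, and many carry an intron close to the start codon. A leader is the stretch between the 5′ end of an mRNA and its start codon, which the small subunit scans from the cap on.

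Each complete pool RNA had 182 nt and consisted of GGG, an insert of 159 nt and a constant 3′ end of 20 nt. The insert held the leader, a lower-case atg as the start codon, and the native sequence downstream of it, and its last 12 nt or fewer differed between RNAs of the same gene (9 to 12 nt in the 13 pairs of RNAs compared). In the deposited letters, capitals otherwise, some inserts hold the lower-case triplet agt. It was read here as an ATG codon exchanged by the pool's designers, which no label states; the reading rests on splice site letters deposited as GTagtT, and the stop codons, sites and restored codons below depend on it. No leader of the 45 genes held this lower-case triplet. After the start codon, 36 of the 45 genes had at least 1 such triplet in their longest RNA. RPL14A and RPL14B, not among the 36, held it in a shorter RNA. The share in other genes is not given here.

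The sequences below carry the main findings on the leaders. They are the last 27 leader bases (or the whole leader, where it is shorter) of the longest RNA of each gene, written as DNA, with the start codon in capitals. The deposited leader letters are capitals and were put in lower case for printing, so an agt printed in a leader is no replaced codon. The first 3 belong to the genes with the highest predicted openness as deposited, and the next 3 to those with the lowest. These ranks are by the mean over the leaders of a gene. The longest leaders by themselves have 0.698 in RPL25, 0.331 in RPL40A and 0.412 in RPL35A. RPL22A, RPP2A and RPL2B leave these places when agt is read as ATG, with values given below. Then follow 2 A-rich leader ends and the T-rich leader of RPL32.
RPL22A: aaacaacagattaagaaacaATG
RPL25: aacaaagaagatcaataagataaaATG
RPP2A: cacaacaacagaaccaatcatacaaaaATG
RPL2B: agaaaccacaaagttattgaacaATG
RPL40A: tagttgagacgaccaagattcaaacATG
RPL35A: taggtacagtgagacagtatattcgaaATG
RPL27A: aaaacaaaagcataaccaaagaaaaaaATG
RPL43B: aaacagcatagataatcaaacaaaaaaATG
RPL32: ttttcatttttttttttttttgattagATG

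Leaders of large subunit genes were short. Averaged over the leaders of a gene, the median length was 23.5 nt (mean 27.1 ± 13.5 nt, SD over 45 genes), against 26.5 nt in 31 small subunit genes, 38.3 nt in 30 mitochondrial ribosomal protein genes and 40.5 nt in 2264 other genes. Of the 45 genes, 40 lay below the median of the other genes and 5 above it. The shortest belonged to RPL1A (YPL220W, 11 nt) and the longest to RPP2B (YDR382W, 80 nt). RPL1A encodes the protein of the L1 stalk, and its B copy, RPL1B (YGL135W), had a leader of 63 nt. RPP0 (YLR340W, the base of the acidic stalk) with 59 nt, RPL30 (YGL030W) with 57 nt and RPL26B (YGR034W) with 41 nt were the other 3 genes above the median of the other genes. The difference of medians from the other genes, 17 nt, came to 9 nt when only the shortest leader of each gene was taken, because the other genes then had a median of 29 nt and the members 20 nt.

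Leaders of large subunit genes were rich in A. Their median A content was 55.0% (mean 52.2 ± 11.2%, SD, n = 45), against 50.6% in small subunit genes and 38.4% in other genes, and 42 of 45 genes lay above the latter value. The highest A content was that of RPL27A (YHR010W, 68.9%), followed by RPP1B (YDL130W, 68.8%) and RPL25 (YOL127W, 68.3%). The 3 genes below the median of the other genes were RPL32 (YBL092W, 16.1%), RPL1A (36.4%) and RPL35A (YDL191W, 36.8%). The A was matched by less T and less G. The median T content was 17.2% in the members and 25.8% in other genes, the median G content was 12% and 17.2%, and C differed little (16.7% and 17.5%). DMS can report on A and C, and together these made up a median of 71.9% of a member's leader against 56.4% in other genes. RPL32 was the exception, with 74.2% T and a run of 15 T that ended 6 nt before the start codon. Printed whole but for its first 2 bases, with the run in capitals, its leader reads as follows.
RPL32: aattttcaTTTTTTTTTTTTTTTgattag

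A content was uneven among the members. In the 27 genes whose RNA held a stop codon in frame after the start codon (described below), median A content was 57.8%, and in the other 18 genes it was 47.0%. With those 27 genes and the like genes among the others left out, the excess of A over the other genes came to 8.65 percentage points in place of 16.6.

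**Figure D1:**
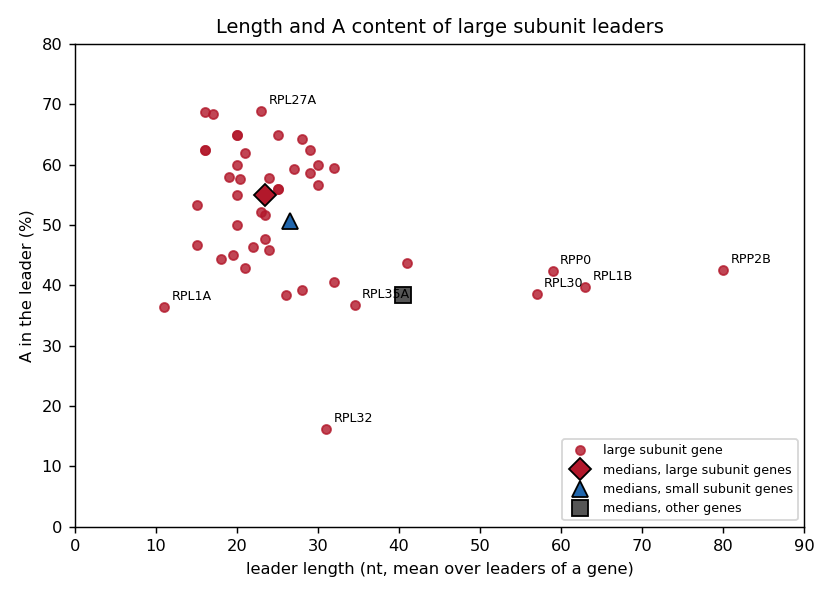
Leader length in nt (x axis, mean over the leaders of a gene) and percent A of the leader (y axis) for the 45 large subunit genes, 1 point per gene, with the medians of large subunit, small subunit and other genes as larger symbols. Most points lie left of 40.5 nt and above 38.4% A, the medians of the other genes, while RPL1B, RPP0, RPL30 and RPP2B lie far to the right and RPL32 far below.

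The bases just before the start codon were read in the longest leader of each gene and counted back from the A of the start codon. A stood at position −3, the position at which yeast start codons favour A most, in 37 of 45 genes (82.2%), against 87.1% in small subunit and 60.6% in other genes. The other 8 members were those with G at −3, RPL4A, RPL6B, RPL30, RPL35A, RPL36A, RPP0 and RPP2B, and that with T, RPL32, while C stood there in no member. The preference for A ran through to the start codon. At −2, A stood in 73.3% of members, 83.9% of small subunit genes and 40.6% of other genes. At −1 it stood in 77.8% of members and 42.7% of other genes. At −1 the small subunit genes differed from the members by count, with A in 51.6% and G in 35.5%, against G in 8.89% of members. All 4 bases before the start codon were A in 13 members (28.9%), in 12.9% of small subunit genes and in 4.89% of other genes. RPL27A and RPL43B, printed above, are among these 13, and RPL32 was the member with the fewest, 1 A in its last 4 bases.

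The run of A stopped at position −5, where A made up 24.4% of members. C or T made up 66.7% of members there, against 58.1% of small subunit genes and 47.9% of other genes. Farther out, A was again at 62.2% at −8 and 63.6% at −12, with lower shares in between, such as 40% at −9. After the start codon, G was the most frequent base at position 4 (53.3% of members, 45.2% of small subunit and 29.9% of other genes). At position 5 it was C (62.2%, 54.8% and 38.1%). The 3 letters after the start codon were GCT in 10 members (22.2%), against 9.68% of small subunit and 3.14% of other genes. GGT and TCC stood in 6 members each (13.3%). GGT stood in 12.9% of small subunit and 2.43% of other genes, and TCC in 9.68% and 3.62%. These 3 letters are not a codon of the protein in each gene: in RPL2B, RPL13A and RPL42A the last 2 letters of GGT belong to the splice site letters described below.

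**Figure D2:**
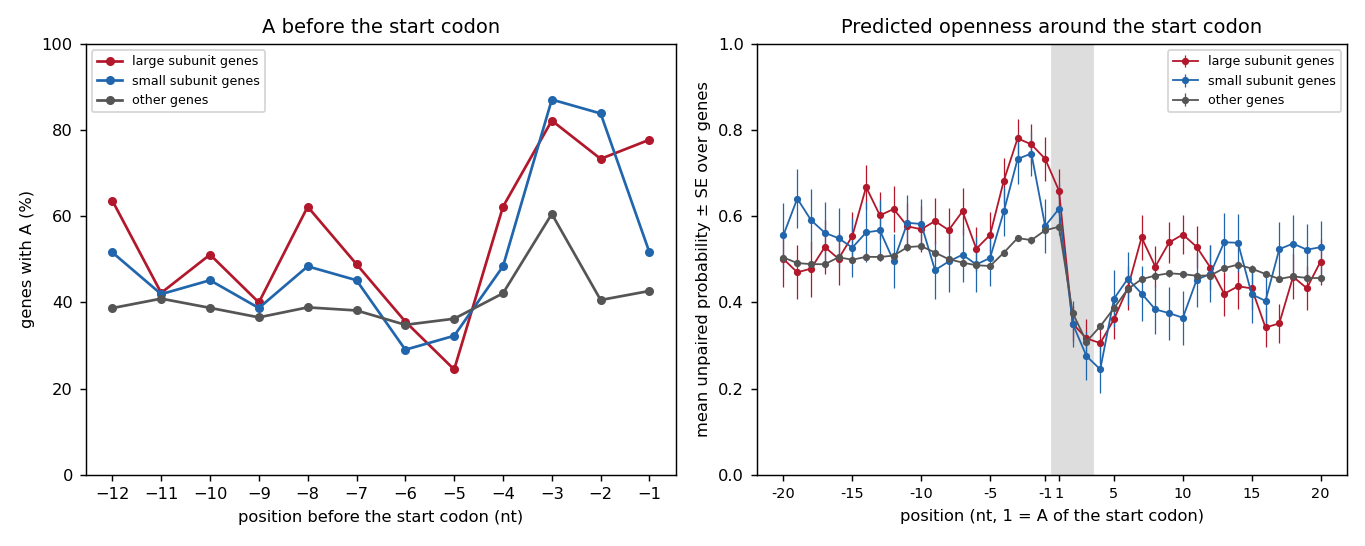
Left, percent of genes with A (y axis) at each position before the start codon (x axis, nt) in large subunit, small subunit and other genes. Right, mean unpaired probability (y axis, bars are SE over genes) by position (x axis, 1 is the A of the start codon, shaded). At −3, A stood in 82.2% of large subunit genes, with a mean unpaired probability of 0.781. The values were 87.1% and 0.733 in small subunit genes and 60.6% and 0.550 in other genes.

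In many of the RNAs the reading frame closed soon after the start codon. With agt read as ATG, the frame after the start codon met a stop codon within the insert in 27 of 45 large subunit genes (60%), in 16 of 31 small subunit genes (51.6%), in none of 30 mitochondrial ribosomal protein genes and in 73 of 2264 other genes (3.22%). In all 27 members the letters of a yeast 5′ splice site came before that stop codon. The same held in all 16 small subunit genes and in 50 of the 73 other genes with such a stop codon. The letters searched, on the strand of the RNA only and from the last base of the start codon on, were GTATGN (the usual yeast site with any sixth base), the form GTACGT found in RPL27A and RPL27B, and the form GTCAGT found in RPL30. All but GTATGT itself were added after the sequences were seen, so the match in every one of the 27 members is partly by choice of letters. GTATGT alone was the form in 20 of the 27 members, in 9 of the 16 small subunit genes and in 44 of the 73 other genes. Of all other genes, with or without a stop codon, 9.72% held any of the forms somewhere in the stretch. Such a match is a description of letters, and splicing was not measured. The pool RNAs were transcribed in vitro, so whatever the insert holds stays in the RNA.

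In the deposited letters a GTATGN site is changed, because its ATG is itself written as agt. The GTCAGT of RPL30 holds no ATG, and its AGT is not a replaced codon. The 12 examples below run from 6 nt before the start codon to 6 nt past the site, with the 6 bases of the site in capitals and agt left as it stands, and are shown because they place the exon end next to the start codon.
RPL19B: aggaaaatGTAGTTttaaca
RPL43A: acaaaaatGTAGTAtatatt
RPL43B: aaaaaaatGTAGTCatataa
RPL30: gcagagatgGTCAGTataaca
RPL35A: ttcgaaatgGTAGTTttgaga
RPL35B: ctaaaaatgGTAGTTagagag
RPL2B: tgaacaatggGTAGTTttttat
RPL13A: tacacaatggGTAGTTctacta
RPL42A: gtaaaaatggGTAGTTtataac
RPL39: atcaacatggctGTAGTTtagaaa
RPL37A: acaaaaatgggtaGTAGTTagtagg
RPL40A: tcaaacatgcaaagTTAGTCaccata

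In RPL19B (YBL027W), RPL43A (YPR043W) and RPL43B (YJR094W-A) the site began with the G of the start codon itself, so that only 2 nt of the start codon lay before it. In RPL30, whose protein is known to bind its own transcript near this site and to hold back its splicing, GTCAGT followed the start codon directly, as GTATGT did in RPL35A and RPL35B (YDL136W). In RPL40A (YIL148W), which encodes a fusion of ubiquitin with a ribosomal protein, 2 agt triplets with a T between them lie across the site, and the deposited TTAGTC reads GTATGC once both are restored. In 16 members (35.6%) the site began within the first 13 nt from the A of the start codon. The share was 25.8% of small subunit genes and 1.90% of other genes. The farthest sites before a stop codon lay at nt 43 in RPL23B (YER117W), nt 50 in RPL28 (YGL103W) and nt 58 in RPL31A (YDL075W). RPP1B held GTATGT at nt 115 with no stop codon after it in the insert. In the longest RNA of RPL14B (YHL001W) no site was found, and a site came into the insert in its RNA with a leader of 3 nt.

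The sequence after the start codon was of different make-up in these genes. Between the start codon and the last 12 nt of the insert, the 27 genes with a stop codon in frame had a median of 38.4% A and 14.8% C, and the 18 members without one had 27.8% A and 23.7% C. Other genes had 31.7% A and 20.4% C. The minimum free energy of the whole RNA was higher, that is, predicted structure was weaker, in the 27 genes (median −37.7 kcal/mol) than in the 18 (−46.7 kcal/mol), and the latter were near the other genes (−46.2 kcal/mol).

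**Figure D3:**
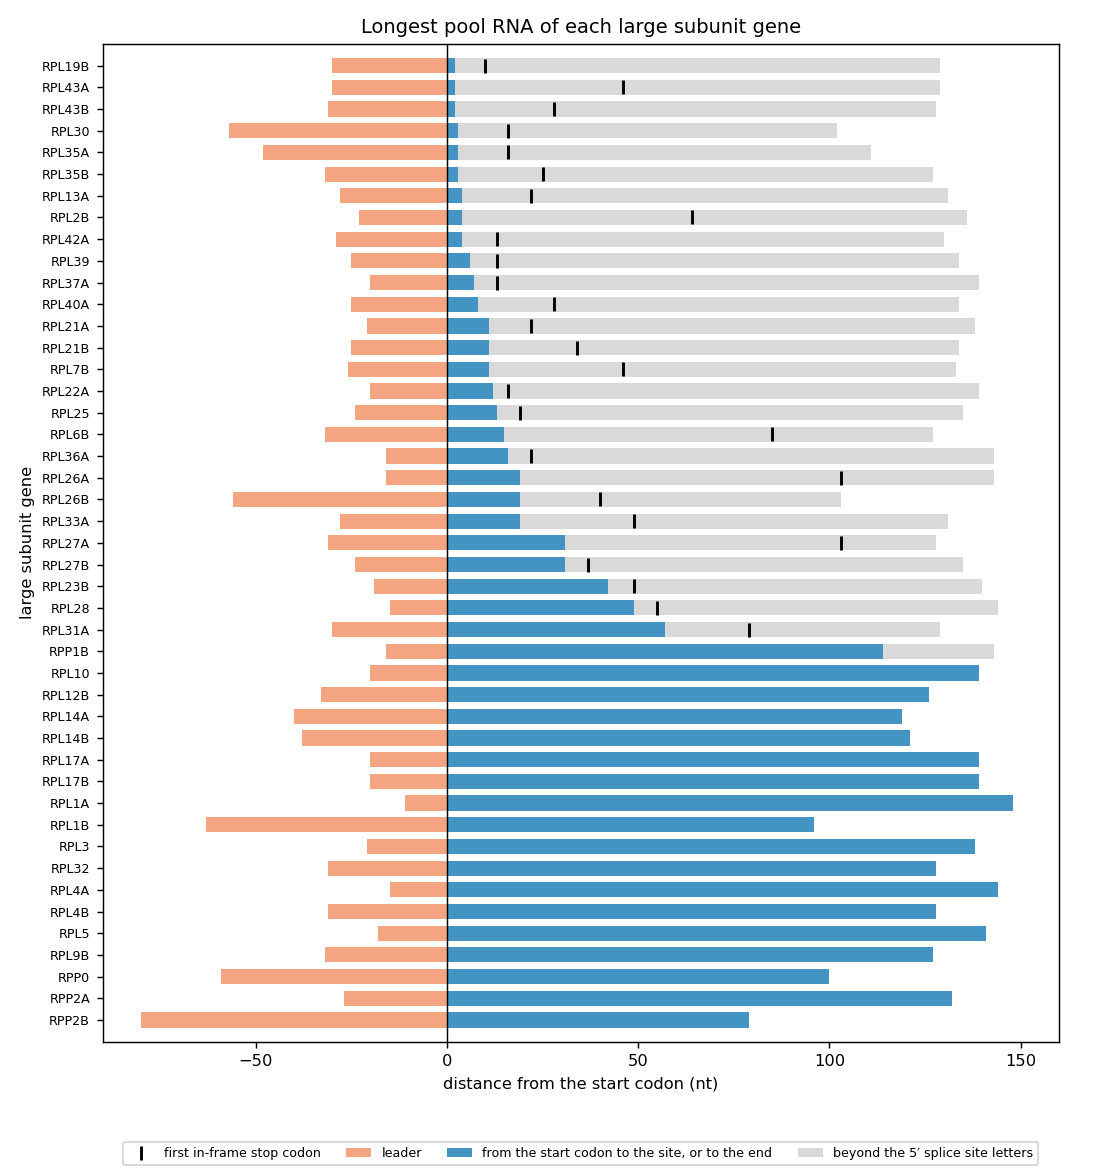
The longest pool RNA of each of the 45 large subunit genes, aligned at the start codon (x axis, nt from the A of the start codon). Shown are the leader, the stretch up to the 5′ splice site letters or to the end of the insert, and the stretch from those letters on. The first in-frame stop codon is a tick. The 27 RNAs at the top hold a site and then a stop codon, from RPL19B, with 2 nt before the site, to RPL31A, with 57 nt.

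Openness was taken as the mean probability, in the ensemble predicted by ViennaRNA at 30 °C for the whole RNA, that a leader base is unpaired. Large subunit leaders were predicted to be more open than most leaders, with a median of 0.584 (mean 0.573 ± 0.133, SD, n = 45), against 0.540 in small subunit genes, 0.468 in mitochondrial ribosomal protein genes and 0.480 in other genes. In 32 of 45 genes the value lay above the median of the other genes. In a window that reached 10 nt to either side of the start codon, the median was 0.545 in the members, 0.474 in small subunit genes and 0.472 in other genes, a difference from the last of 0.073 that came to 0.121 when the window reached 5 nt to either side. The spread among members, from 0.347 to 0.889, was wider than any difference between the medians of the groups. No test over genes was made, since the members are a given list and share sequence between copies.

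By position, the members' mean unpaired probability was highest at −3 (0.781), −2 (0.767) and −1 (0.733). Small subunit genes had 0.733, 0.746 and 0.577 there, and other genes 0.550, 0.545 and 0.567. At the first base of the start codon the members had 0.660. They had 0.351 at the second and 0.316 at the third base, as in other genes (0.376 and 0.309). Across the 45 genes, A content and openness had a Pearson correlation of 0.39 and a Spearman correlation of 0.44, and the same pair of measures had 0.51 and 0.49 across the 2168 other genes whose leaders reached 10 nt. Openness is computed from the same bases as A content, so these are descriptions, as is the correlation of −0.12 (Spearman −0.04) between leader length and openness.

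Genes at the tRNA sites and the peptidyl transferase centre (RPL2B, RPL3, RPL10, RPL28 and RPL42A) had a median openness of 0.520. RPL3 (YOR063W), a protein that reaches towards the catalytic centre, had the highest value of the 5, 0.708, with a leader of 21 nt and 42.9% A. RPL2B (YIL018W), which encodes one of the most conserved proteins near that centre, had the lowest, 0.375, and its start codon window was at 0.380. Its value was 0.528 without the constant ends and 0.640 with agt read as ATG, where RPL28 was the lowest of the 5 at 0.451. RPL10 (YLR075W), the protein that joins the subunit late in its assembly, had 0.454, RPL28 0.520 and RPL42A (YNL162W), near the exit site of tRNA, 0.646.

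The 12 genes of the exit tunnel (RPL4A, RPL4B, RPL17A, RPL17B, RPL19B, RPL25, RPL26A, RPL26B, RPL31A, RPL35A, RPL35B and RPL39) had a median of 0.525 and held both a high and a low extreme. RPL25, the docking protein for the signal recognition particle, had 0.844, the second highest of all members. RPL35A, which sits at the rim of the tunnel beside it, had 0.347, the lowest of all members. RPL31A followed RPL25 with 0.666, while RPL17A (YKL180W, 0.448), RPL17B (YJL177W, 0.405) and RPL19B (0.447) lay below the median of the other genes.

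The 7 stalk genes (RPL1A, RPL1B, RPL12B, RPP0, RPP1B, RPP2A and RPP2B) had a median of 0.572, and none of them fell below 0.490. RPP2A (YOL039W), for an acidic protein that recruits elongation factors, was highest at 0.781, and RPP2B, paired with it here by symbol, lowest at 0.490. Around the start codon the order was another one: RPP2A stood at 0.440 and RPP2B at 0.633, while RPP0, with 0.603 over its leader, had 0.342 there. RPL12B (YDR418W), at the base of the stalk, had 0.499 over the leader and 0.743 around the start codon, the second highest value of the members after RPL14A.

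Of the 3 genes for the 5S RNA and the central protuberance, RPL21B (YPL079W) had 0.625, RPL21A (YBR191W) 0.615 and RPL5 (YPL131W), which carries the 5S RNA into the subunit, 0.438. The 18 other genes were RPL6B, RPL7B, RPL9B, RPL13A, RPL14A, RPL14B, RPL22A, RPL23B, RPL27A, RPL27B, RPL30, RPL32, RPL33A, RPL36A, RPL37A, RPL40A, RPL43A and RPL43B, with a median of 0.624. Their range was the widest, from 0.356 in RPL40A to 0.889 in RPL22A (YLR061W), the highest of all members as deposited (0.608 with agt read as ATG). RPL36A (YMR194W, 0.779), RPL14A (YKL006W, 0.737), RPL37A (YLR185W, 0.737), RPL43B (0.721) and RPL23B (0.704) followed. At the lower end stood RPL6B (YLR448W, 0.389), RPL27B (YDR471W, 0.415), RPL30 (0.420) and RPL7B (YPL198W, 0.431).

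**Figure D4:**
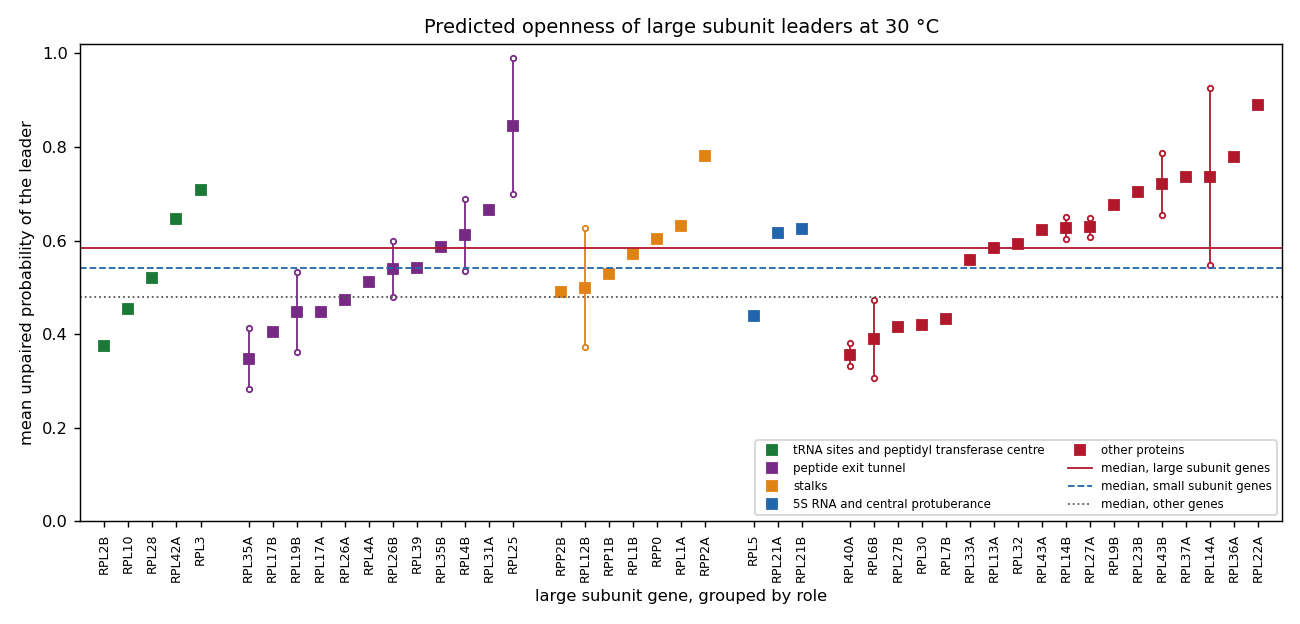
Mean unpaired probability of the leader (y axis) for each of the 45 large subunit genes (x axis), ordered within 5 role groups. Squares are means over the leaders of a gene, open circles the single leaders where a gene has more than 1, joined by a line, and horizontal lines the medians of large subunit (0.584), small subunit (0.540) and other genes (0.480); each role group holds genes above and below 0.584.

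By the medians, leader bases were predicted to pair less with other leader bases than with the insert after the leader. The mean probability that a leader base pairs within its leader had a median of 0.018 in the members, 0.063 in small subunit genes and 0.182 in other genes, and 38 of 45 members lay below the last value. Pairing with the insert from the start codon up to its last 12 nt had a median of 0.245 in the members, 0.246 in small subunit genes and 0.168 in other genes, with 26 of 45 members above the last value. Pairing within the leader exceeded pairing with the insert in RPL1B, RPL9B, RPL14B, RPL21B, RPL25, RPL26B, RPL27A, RPL32, RPL33A, RPL42A, RPL43A and RPP0. The constant ends took a median of 0.062 and the variable last 12 nt 5.76e-04. Members' leaders were also shorter (median 23.5 nt against 40.5 nt), and the part of length in these values was not tested. The highest pairing with downstream bases was that of RPL17B (0.590), the lowest that of RPL25 (0.037), and the highest pairing within a leader was that of RPP0 (0.298), whose leader is 59 nt long.

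In the minimum free energy structure, the longest stem that held a leader base had a median of 5 base pairs over the 58 RNAs and at most 9. In 47 RNAs its other side lay at or after the start codon, and in 6 RNAs both sides lay in the leader. The 47 include stems with the constant 3′ end, in RPL9B, RPL27A (15-nt leader), RPL27B, RPL28, RPL36A, RPL37A, RPL42A and RPL43A. In RPL14B (20-nt and 38-nt leaders) and RPL40A (25-nt leader) the other side reached into that end. In 4 RNAs no leader base was paired as the first side of a stem: the 18-nt leader of RPL14A, the 20-nt leader of RPL22A, the 10-nt leader of RPL25 and the 19-nt leader of RPL43B. Stems of 8 or more base pairs were found in 6 RNAs, of RPL6B (both leaders), RPL30, RPL35A, RPL40A and RPP2B.

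The stem of RPL30 paired positions −3 to 5 with positions 26 to 33 at a mean pair probability of 0.995, the start codon included, so that the unpaired probability of its start codon was 0.0011, the lowest of the members. Its sides read gagatggt and actatttc, and the second lies beyond the splice site letters. The 21-nt leader of RPL35A formed a hairpin of 8 base pairs from −6 to 2 and from 7 to 14. Its mean pair probability was 0.855, and 2 bases of its stem belong to a replaced codon. With agt read as ATG, the openness of this leader went from 0.282 to 0.432. The hairpin as deposited is printed here with both sides of the stem in capitals.
RPL35A: TTCGAAATggtaGTTTTGAG
RPL6B paired −12 to −4 with 45 to 53 in both of its RNAs, at mean pair probabilities of 0.973 and 0.987, and 5 of the 18 bases of that stem belong to replaced codons. RPL40A paired −11 to −4 with 81 to 88 in its 14-nt leader at 0.679, and RPP2B paired −60 to −52 with 36 to 44 at 0.839. Replaced codons contributed bases to the longest stem in 8 of the 58 RNAs.

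Part of the predicted partners lay in the splice site letters or beyond them. In the 27 genes with a site before a stop codon, a median of 36.0% of the pairing of leader bases was with the site or bases beyond it. The share ran from 0.226% in RPL31A to 92.1% in RPL21A and was over 50% in 10 of the 27 genes. The letters of the site itself are counted in, with any replaced codon they hold. RPL19B (81.9%), RPL6B (81.0%) and RPL30 (80.8%) were near the upper end, and RPL28 (0.474%) and RPL25 (1.28%) near the lower. Most of the sequence on offer lay there too. In the longest RNAs, the site and the bases beyond it made up 51.3% (RPL31A) to 98.3% (RPL19B) of the stretch between leader and variable end. This share was 62.9% in RPL28 and 89.4% in RPL25. How far this layout accounts for the pairing values was not tested. Bases beyond a 5′ splice site that is used are absent from spliced mRNA, and spliced sequences were not analysed here.

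Replaced codons after the start codon also entered the predictions. With each agt read as ATG before folding, the median openness of the members was 0.592 in place of 0.584, and 37 of 45 genes moved by at most 0.1. The other 8 genes moved by more, and the extremes were among them: RPL22A went from 0.889 to 0.608, RPL1A from 0.631 to 0.451, RPL36A from 0.779 to 0.652 and RPL23B from 0.704 to 0.593, whereas RPL2B went from 0.375 to 0.640, RPL21A from 0.615 to 0.809, RPL6B from 0.389 to 0.571 and RPL19B from 0.447 to 0.602. RPL25 (0.787), RPP2A (0.725), RPL40A (0.365) and RPL35A (0.399) moved by less than 0.1.

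Pairs of A and B genes were made by symbol alone, and their origin was not examined. The genes of a pair are called copies below. Both copies were present for 10 such pairs: RPL1, RPL4, RPL14, RPL17, RPL21, RPL26, RPL27, RPL35, RPL43 and RPP2. Over the last 20 leader bases (fewer where a leader is shorter), aligned at the start codon without gaps, the copies shared a median of 42.5% of bases, from 30.0% in RPP2 to 55.0% in RPL21. Over the 30 nt after the start codon they shared a median of 83.3%, up to 100% in RPL4. The pairs with lower identity there were RPL43 (23.3%) and RPL35 (43.3%), whose sites begin within or directly after the start codon, RPL26 (66.7%) and RPL21 (70.0%). The leader ends of the most and the least similar pair are printed with the start codon in capitals.
RPL21A: gacaaaaataactagcaacaATG
RPL21B: gtcaaggacactaaacaaaaATG
RPP2A: acagaaccaatcatacaaaaATG
RPP2B: tctattaatcaacaacagaaATG

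Leader length differed most within RPP2 (27 nt in A and 80 nt in B), RPL1 (11 and 63 nt) and RPL26 (16 and 41 nt), and was the same in RPL17 (20 nt in both). The openness of the copies differed by a median of 0.10, from 0.010 in RPL21 to 0.291 in RPP2, and was higher in A in 5 pairs and in B in 5 pairs. RPL27 differed by 0.214, with A at 0.628 and B at 0.415, and A content was 68.9% in A and 45.8% in B. RPL35 differed in the other direction, with A at 0.347 and B at 0.586, and A content was 36.8% in A and 59.4% in B. In RPL14 the values were 0.737 and 0.627, in RPL43 0.622 and 0.721, in RPL4 0.510 and 0.612, in RPL26 0.473 and 0.540, in RPL1 0.631 and 0.572, and in RPL17 0.448 and 0.405. The pairs RPL27, RPL35, RPL43 and RPP2 kept the direction of their difference in each of the 3 other ways of folding, and the other 6 pairs changed it in at least 1. For those 6 no copy can be called the more open one, nor for RPL43, whose difference of −0.10 came to −0.0064 without the constant ends and −0.012 with agt read as ATG.

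**Figure D5:**
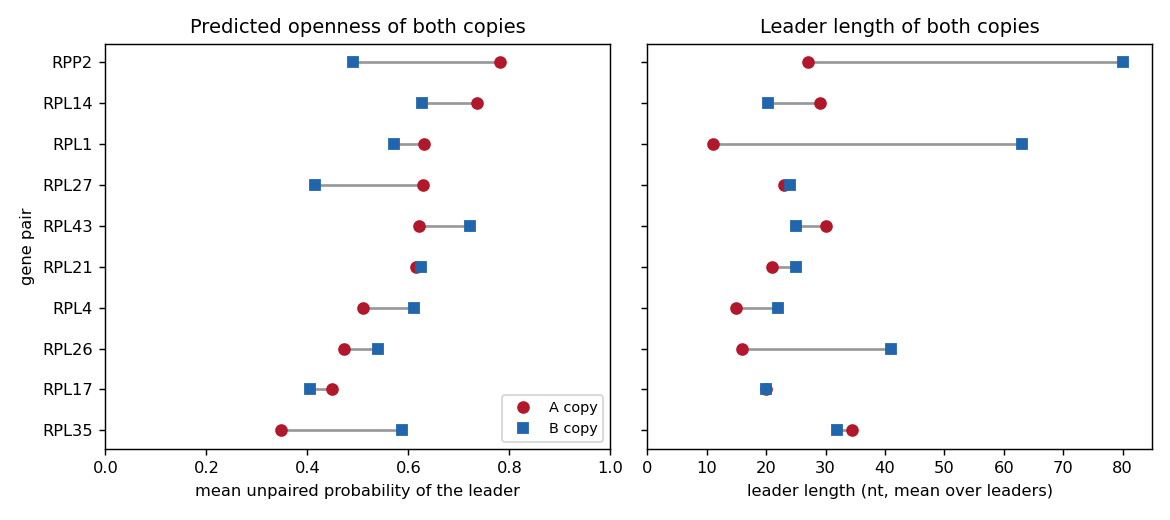
Both genes of the 10 pairs made by symbol (y axis). Shown are the mean unpaired probability of the leader (left, x axis) and the leader length in nt (right, x axis). Circles are A copies, squares B copies, and each line joins a pair. The widest gap in openness is that of RPP2 (0.781 and 0.490), which also has the widest gap in length (27 and 80 nt).

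Leaders of more than 1 length were present for 12 genes. Of these, 11 had 2 leaders and RPL14B had 3, and the leaders of a gene share their 3′ part and start codon. The other 33 genes had 1 leader. Leaders of the same gene were compared between the shortest of at least 10 nt and the longest. The longer leader was predicted to be less open in 8 of 12 genes, with a median difference of −0.085, and had the lower A content in 11 of 12. The widest differences were in RPL14A, from 0.926 at 18 nt to 0.548 at 40 nt, in RPL25, from 0.990 at 10 nt to 0.698 at 24 nt, and in RPL12B, from 0.626 at 14 nt to 0.372 at 33 nt. As deposited, the longer leader was more open in RPL19B (0.362 at 18 nt, 0.533 at 30 nt), RPL6B (0.305 at 15 nt, 0.473 at 32 nt), RPL35A (0.282 at 21 nt, 0.412 at 48 nt) and, by 0.048, in RPL14B. None of these 4 kept that direction in every way of folding. With agt read as ATG the difference was −0.082 in RPL19B, −0.090 in RPL6B and −0.066 in RPL35A, and without the constant ends it was −0.047 in RPL35A and −0.244 in RPL14B. Of the 8 genes whose longer leader was less open, RPL27A also changed sign, to 0.022 with agt read as ATG and 0.078 without the constant ends. Around the start codon the 2 leaders lay within 0.1 of each other in 9 of 12 genes, and RPL12B, RPL19B and RPL35A were the exceptions.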

How the data were processed

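The naked pool RNA of the 9 libraries was, per the labels' protocols, copied into cDNA with TGIRT-III. The submitters' processing notes list STAR and SAMtools without versions, and the sources used here name no build. The authors deposited 1 table with the RNA name and reference base of 1048575 positions. It stops within an RNA at a spreadsheet's row limit, so the pool is held in part. Its 6 columns of values were not used, because each name fits 3 samples, and the planned comparison of reactivity was not made.

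Bases were joined into RNAs, and the leader was read between GGG and the lower-case atg. The reference table of gene symbols was that of RefSeq for R64, and none of its coordinates was used. RNAs were folded with ViennaRNA 2.7.2 at 30 °C. Leaders under 10 nt were left out of leader composition, openness, free energy and pairing partners, where the leaders of a gene were averaged. Stems were read in each of the 58 RNAs. The start codon context was read in the longest leader of each gene, of any length. Unpaired probabilities by position before the start codon also took in leaders under 10 nt. Errors are spreads over genes, not replicates. The steps were tested on simulated RNAs. The rule for members uses no measured value, but the list of members and the role groups were proposed with earlier results of these data known, and the splice site letters beyond GTATGT after the sequences were seen. No protein sequence was used, so in-frame stop codons stood in for the planned translation. Every member was named by role, and values were given for the extremes of each feature and role group and for all A and B pairs. Alternatives were the longest or shortest leader, leaders of at least 20 nt, averaged copies, 37 °C, no constant ends, restored codons, a window of 5 nt and, added after seeing the data, leaving out genes with an in-frame stop codon and GTATGT alone.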

Additional observations from a re-analysis of the deposited data

How the results depend on the processing

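No paired analysis was possible because no column of values was used and no result comes from a test over samples. A value was taken as moved when it changed by more than 1 SE over the member genes. Each difference of medians from the other genes, given in parentheses, kept its sign under each alternative run. Median leader length was 27 nt (−24 nt against the other genes) with the longest leader per gene and 20 nt (−9) with the shortest, and the difference was −19.5 nt without genes with an in-frame stop codon. Median A content was 53.3% with the longest leader, 52.2% (difference 13.7) with copies averaged, 47.0% (8.65) without genes with a stop codon and 52.5% (14.1) for leaders of at least 20 nt. Median openness was 0.559 (0.082) with the longest leader, 0.561 (0.081) with copies averaged and 0.676 (0.152) without the constant ends. Around the start codon it was 0.563 with the shortest leader, 0.573 (0.101) without genes with a stop codon, 0.569 at 37 °C and 0.590 (0.121) in the window of 5 nt. Pairing with downstream bases was 0.278 (0.109) without genes with a stop codon.

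Within pairs, the A minus B difference in openness changed sign in 7 cases. Without the constant ends it was −0.112 in RPL14, −0.408 in RPL17, 0.048 in RPL26 and 0.140 in RPL4; at 37 °C it was −0.049 in RPL17; with codons restored it was −0.121 in RPL1 and 0.186 in RPL21. The longer minus shorter leader difference changed sign in 7 cases: without the constant ends it was −0.244 in RPL14B, 0.078 in RPL27A and −0.047 in RPL35A, and with codons restored −0.082 in RPL19B, 0.022 in RPL27A, −0.066 in RPL35A and −0.090 in RPL6B. The cause was not tested. Predictions take no salt, DMS or protein into account, and no depth or replicate limits them since none was used.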

Other observations

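Short words of the leaders also differed in frequency. In the longest leaders of at least 10 nt of the large subunit genes, CAA made up 6.42% of all 3-base words, against 6.24% in small subunit genes and 2.89% in other genes, 2.22 times as frequent as in the latter. AAC followed with 4.98% against 2.44% in other genes. AAA, the most frequent 3-base word of the members with 8.51%, was 1.43 times as frequent as in other genes (5.97%). A run of at least 6 A was found in 3 of 45 members (6.67%) and in 11.5% of other genes, and a run of at least 6 T in 2 members (4.44%), RPL32 and RPL26B, and in 5.61% of other genes.

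The first base of the longest leader was A in 23 members (51.1%) and T in 15 (33.3%), against 47.6% and 27.6% in other genes. Small subunit genes had A there in 64.5%. The base that follows the 3 G of the pool RNA was G in 4 members (8.89%), against 16.1% of small subunit and 13.9% of other genes. No leader of the 45 genes held a replaced codon. In the longest leader, 1 of 31 small subunit genes (3.23%), 1 of 30 mitochondrial ribosomal protein genes (3.33%) and 15.6% of other genes had at least 1. These leaders had a median of 27 nt in the members and 51 nt in other genes, and the part of length was not tested.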
